A study of Homo sapiens with 9 samples.

Results

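The genes described here are 41 genes of transforming growth factor beta (TGF-beta) and bone morphogenetic protein (BMP) signalling, with the thrombospondins. They were chosen by name: the rows of a table of read counts whose Ensembl identifiers carry the listed symbols. The choice was made with earlier results of these data known. Of the 41 genes, 40 had a row among the 23727 genes of the table and 39 passed the filter on low counts, which left 15273 genes to test. GREM1 was not analysed here, and SMAD9 was below the filter. The counts are from LN229, an established human glioblastoma cell line, grown as a bulk culture. One label spells the line LN299, and the name in the growth protocol is used here.

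Cells of 3 groups were compared: untreated cells at 0 h, cells given 500 µM sodium formate for 8 h, and cells given the same dose for 24 h. Formate is a carrier of single carbon units in folate metabolism. The medium of all groups held glucose at 17 mM, glutamine at 2 mM and fetal bovine serum at 10%. Each group holds 3 libraries, numbered 1 to 3 in the titles. The only untreated libraries were those at 0 h, so formate and time in culture cannot be told apart. The labels do not say that the replicates were separate cultures, so the p-values measure the spread between these samples, which may be technical. In bulk RNA, fewer cells of a kind and less RNA per cell cannot be told apart.

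TGF-beta is secreted in a latent complex with its own propeptide, tethered to the matrix by latent TGF-beta binding proteins, and thrombospondin 1 is among the proteins that can activate it. Active ligands bring type II and type I receptor kinases together, which phosphorylate receptor SMADs: SMAD2 and SMAD3 downstream of TGF-beta and activin, and SMAD1, SMAD5 and SMAD9 downstream of BMPs. These join SMAD4 in the nucleus, and the inhibitory SMADs, the SMURF ubiquitin ligases and the SKI family dampen the signal. In glioblastoma, TGF-beta is known for roles in invasion, in immune suppression and in keeping stem-like cells through ID proteins, while BMP4 is known to push such cells towards an astrocyte-like state.

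Library totals ran from 22222298 to 25848242 counts, and levels are given as CPM, the usual scaling of counts by library size. In this unit 3 counts, the floor used for detection, were worth 0.116 to 0.141. The first principal component of the most variable of the tested genes carried 70.7% of the variance of those genes. Untreated replicate 1 lay at -23.5 on it and 8 h replicate 1 at -21.6, while the other untreated and 8 h libraries lay between -3.41 and -0.798 and the 24 h libraries between 9.56 and 25.03. Untreated replicate 1 stood farther from both other untreated libraries than these did from each other for 30 of the 39 genes (76.9%), against 63.9% of all tested genes. Glial and glioblastoma markers summed to 7584 to 9930 CPM at 0 h, 7703 to 9405 CPM at 8 h and 6333 to 7668 CPM at 24 h, 9 of 10 having a row. VIM, the mesenchymal filament protein vimentin, made up 4903 ± 1197 CPM of this at 0 h and 3554 ± 363 CPM at 24 h (SD, n = 3). GFAP, the astrocyte filament, was at 0.233 ± 0.0842 CPM at 0 h, near the floor. Markers of blood, epithelial, endothelial, neuronal and oligodendrocyte cells, 10 of 13 with a row, summed to 1.89 to 2.78 CPM at 0 h, 1.86 to 2.77 CPM at 8 h and 3.38 to 4.15 CPM at 24 h. This sum was higher in every library at 24 h than in any at 0 h or 8 h, and 3 of these markers passed the filter on low counts. The epithelial CDH1 was at 0 CPM in all libraries at 0 h and 24 h, and EPCAM was at 0 CPM in all at 0 h. These zeros do not describe the other markers. The part of such cells in the results was not tested.

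The question of the time course is which genes differ after 8 h and after 24 h of formate. At 24 h against 0 h, thrombospondin 1 (THBS1), the ligand BMP4 and the ubiquitin ligase SMURF2 were lower, and thrombospondin 2 (THBS2) and the BMP target ID4 were higher. These were 5 of the 39 genes (12.8%) with an adjusted p under 0.05 (quasi-likelihood test of edgeR, p-values adjusted by the Benjamini-Hochberg method over all tested genes), where 4.25% of all tested genes were called (2.47% higher and 1.77% lower). The median log2 fold change of the 39 genes was 0.04, beside 0.01 for all tested genes, with 22 fitted higher and 17 lower; 50.9% of all tested genes were fitted higher. The 24 h and 0 h libraries did not overlap for 16 of the 39 genes (41.03%), beside 30.3% of all tested genes. As the set was chosen with earlier results known, these shares describe it and are not a test.

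With the replicate number as a block, which compares libraries of the same number, 18 of the 39 genes passed at 24 h against 0 h (46.2%), 10 higher and 8 lower, beside 24.1% of all tested genes (12.6% higher and 11.6% lower). The 13 added were THBS3, INHBA, TGFBR3, TGFBR2, BMPR1A, SMAD1, SKI and BAMBI, all higher, and TGFBI, LTBP1, ENG, PMEPA1 and ID1, all lower. The titles only number the libraries, so these 13 rest on the assumption that libraries of the same number belong together. Without the block, no gene of the 39 passed when 24 h replicate 2 or 24 h replicate 3 was left out. In these fits 0 of all tested genes passed. Only SMURF2 passed without untreated replicate 1, where 356 of all tested genes were called. Leaving out untreated replicate 3 left 2 genes (418 of all tested genes) and 8 h replicate 2 left 2 (445). Leaving out 8 h replicate 3 left 1 (284 of all tested genes) and 24 h replicate 1 left 3 (899). With the block, the 5 genes passed in all 9 fits that left out a library.

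At 8 h against 0 h none of the 39 genes passed, as for all tested genes (0% called), and none had an unadjusted p under 0.05, beside 0.517% of all tested genes. DESeq2 also called 0. The fitted log2 fold changes at 8 h ran from -0.16 for ID4 to 0.29 for THBS1. The libraries overlapped for all 39 genes, while they did not for 3.31% of all tested genes.

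Between 24 h and 8 h, 3 of the 39 genes passed without the block (7.69%): THBS1 and SMURF2 lower and ID4 higher. Of all tested genes, 4.56% were called (2.84% higher and 1.72% lower). Libraries did not overlap for 18 of the 39 genes (46.2%), beside 34.3% of all tested genes. The comparisons share libraries in pairs and are not independent of each other. None of the 39 genes passed when 8 h replicate 1, 24 h replicate 2 or 24 h replicate 3 was left out. In these fits 0 of all tested genes passed. None of the 39 passed without 8 h replicate 3, where 53 of all tested genes were called. Without untreated replicate 1, 12 of the 39 passed, and 2545 of all tested genes were called.

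**Figure D1:**
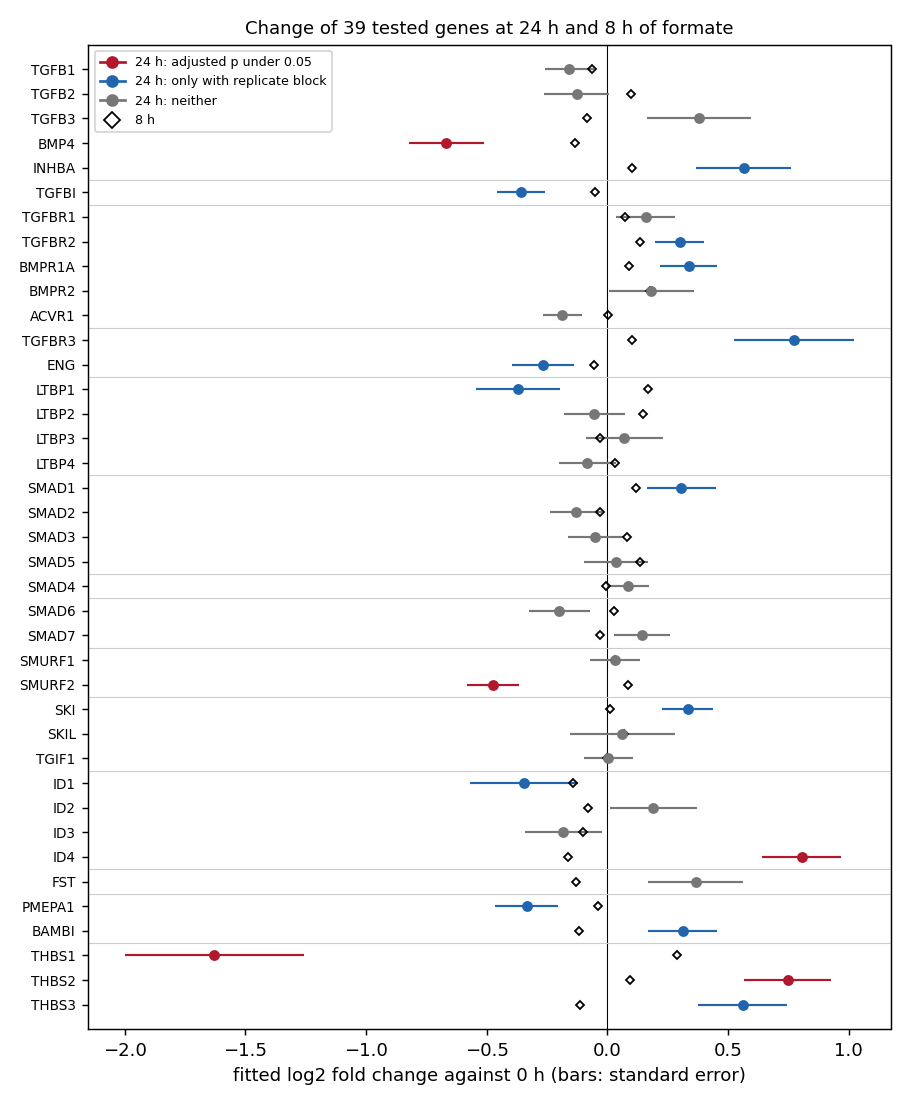
The fitted log2 fold change against 0 h (horizontal axis) is drawn for the 39 tested genes, grouped by role, as filled points with standard error bars at 24 h and as open diamonds at 8 h. THBS1 at -1.63 stands farthest from 0 at 24 h, and the diamonds lie between -0.16 and 0.29.

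The upstream sequences of THBS1, ID4 and SMURF2 are shown because these genes passed in both 24 h comparisons and have a single start in the RefSeq table used (GRCh38.p14). Each is the 250 bases before the start, 5′ to 3′ on the gene's strand, with capitals at matches to 4 motifs searched on both strands: CAGAC (SMAD box), GGCGCC (BMP SMAD box), TGANTCA (AP-1) and GGAATG (TEAD). THBS1 is at chr15:39580829-39581078, plus strand, ID4 at chr6:19837120-19837369, plus strand, and SMURF2 at chr17:64662308-64662557, minus strand.
THBS1: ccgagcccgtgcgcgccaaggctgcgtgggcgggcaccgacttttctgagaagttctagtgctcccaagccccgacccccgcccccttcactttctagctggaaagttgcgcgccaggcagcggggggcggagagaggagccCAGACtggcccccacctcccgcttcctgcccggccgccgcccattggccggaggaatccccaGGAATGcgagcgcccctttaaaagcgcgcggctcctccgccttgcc
ID4: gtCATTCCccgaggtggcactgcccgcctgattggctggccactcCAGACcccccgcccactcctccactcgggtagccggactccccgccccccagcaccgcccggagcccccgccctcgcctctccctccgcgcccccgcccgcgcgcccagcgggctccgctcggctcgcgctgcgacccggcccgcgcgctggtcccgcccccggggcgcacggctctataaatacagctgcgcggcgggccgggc
SMURF2: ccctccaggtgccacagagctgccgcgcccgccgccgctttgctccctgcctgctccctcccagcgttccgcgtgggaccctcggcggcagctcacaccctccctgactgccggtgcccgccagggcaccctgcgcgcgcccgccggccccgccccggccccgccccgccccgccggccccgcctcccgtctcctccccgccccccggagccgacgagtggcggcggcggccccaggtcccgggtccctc
THBS1 held CAGAC at 108 bases and GGAATG at 46 bases before the start. ID4 held CAGAC at 205 bases before the start, and CATTCC, which is GGAATG on the other strand, at 248 bases. SMURF2 held none of the 4 motifs. The gene span of SMURF2 given below begins at 64662068 on the minus strand. The bases just upstream of that start lie outside the window and were not searched. GC content was 69.6% for THBS1, 78.8% for ID4 and 82% for SMURF2, beside a median of 58% over 34788 upstream windows. CAGAC occurred in 38% of all windows and in 42.1% of the 76 windows of 38 tested genes of the set. GGCGCC occurred in 16.4% and 22.4%, TGANTCA in 6.59% and 6.58%, and GGAATG in 11.9% and 14.5%, respectively. These matches describe letters in a window and no binding.

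Per kilobase of exon, PMEPA1 had the highest untreated level of the 40 genes, at 253 ± 29.8 CPM per kb, and THBS1 was next at 223 ± 56.0 (SD, n = 3). Their difference lay within the spread between libraries. BAMBI at 109 ± 7.02 and ID1 at 108 ± 37.8 CPM per kb followed and did not differ beyond their spread, then TGFBI at 79.5 ± 4.66, ID3 at 69.6 ± 17.6 and THBS2 at 47.1 ± 11.7. At the low end were SMAD6 at 1.33 ± 0.109, TGFB3 at 0.788 ± 0.194 and SMAD9 at 0.0280 ± 0.0227 CPM per kb. The 40 genes held 14 with an untreated mean of at least 100 CPM, 24 from 10 to under 100 CPM and 2 under 10 CPM. SMAD2 has an annotated exon length of 36.4 kb, which sets its value per kilobase. By 24 h THBS1 had moved from rank 2 to rank 5, at 72.0 ± 36.9 CPM per kb, and THBS2 from rank 7 to rank 4, at 79.1 ± 12.8. At 24 h the difference between THBS1 and THBS2 lay within the spread between libraries.

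**Figure D2:**
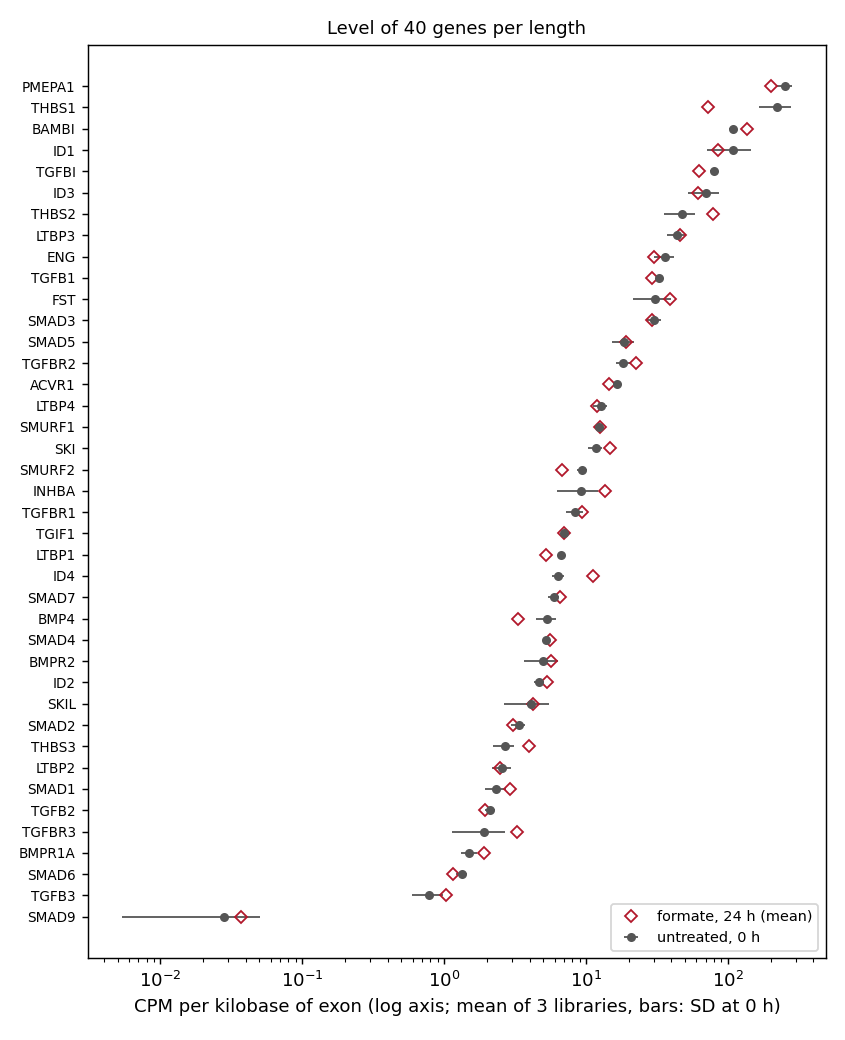
The level of 40 genes per kilobase of exon (horizontal log axis, CPM per kb) is drawn as filled points with SD bars for the 3 untreated libraries and as open diamonds for the mean of the 3 libraries at 24 h of formate. Levels span from 0.0280 CPM per kb for SMAD9 to 253 for PMEPA1, and THBS1 has the widest gap between its point and its diamond.

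Thrombospondins are secreted matrix glycoproteins, and thrombospondin 1 binds the latent TGF-beta complex and the receptors CD36 and CD47. THBS1 (ENSG00000137801, chromosome 15, 39581079 to 39599466, plus strand, GRCh38) stood at 2631, 1752 and 1734 CPM in untreated replicates 1 to 3. It stood at 3631, 2048 and 1795 CPM after 8 h and at 1009.6, 633 and 336 CPM after 24 h. Every library at 24 h was below all 6 others, and the libraries numbered 1 were the highest of each group. THBS1 fell by 1.63 on the log2 scale at 24 h against 0 h (SE 0.37, adjusted p = 0.0359), a 3.09-fold lower level. Against 8 h it fell by 1.92 (SE 0.37, adjusted p = 0.0248). At 8 h its log2 fold change of 0.29 (SE 0.36) did not pass, and 8 h replicate 1 was far above the other libraries at 8 h. By replicate number, the level at 24 h was 0.384, 0.361 and 0.194 of that at 0 h. On the opposite strand, AC037198.2 and FSIP1 overlap 7.58% of the THBS1 exons, with at most 67 counts in any library.

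THBS2 (ENSG00000186340, chromosome 6, 169215780 to 169254044, minus strand) encodes a thrombospondin of the same trimeric subgroup, which is known to bind CD36 but lacks the sequence by which thrombospondin 1 activates latent TGF-beta. Its levels were 238, 285 and 384 CPM at 0 h, 300.5, 296 and 372 CPM at 8 h, and 487, 437 and 598 CPM at 24 h. The 24 h libraries were the 3 highest of the 9, the nearest being untreated replicate 3. THBS2 rose by 0.75 on the log2 scale at 24 h against 0 h (SE 0.18, adjusted p = 0.0436), 1.68-fold. Against 8 h the value was 0.65 (SE 0.18, adjusted p = 0.0626), which did not pass without the block.

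THBS3 (ENSG00000169231, chromosome 1, 155195588 to 155209051, minus strand), a thrombospondin of the pentameric subgroup, was at 10.2, 12.6 and 14.4 CPM at 0 h. It was at 9.72, 10.8 and 13.8 CPM at 8 h and at 14.6, 18.6 and 21.5 CPM at 24 h. The lowest library at 24 h was only just above the highest at 0 h, and replicate 1 was the lowest of each group. Its log2 fold change at 24 h against 0 h was 0.56 (SE 0.18), with an adjusted p of 0.0964 without and 0.00223 with the block (0.00183 to 0.325 over all 24 alternatives). Genes on the opposite strand overlap 25.4% of its exons, and of these MTX1 was at a mean of 26.2 CPM at 0 h and 23.3 CPM at 24 h.

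The thrombospondins thus differed in direction, and THBS1 made up less of their sum at 24 h. THBS1 was 91.4%, 85.5% and 81.3% of the summed CPM of the 3 genes in the untreated libraries, and 66.8%, 58.1% and 35.2% at 24 h. Per kilobase, THBS1 was 7.75, 4.31 and 3.16 times THBS2 in untreated replicates 1 to 3 and 8.46, 4.85 and 3.38 times at 8 h. At 24 h the ratios were 1.45, 1.01 and 0.394, so that in replicate 3 the level of THBS2 per kilobase was above that of THBS1. THBS4, of the further thrombospondins, had a log2 fold change of 0.45 at 24 h against 0 h (SE 0.31, adjusted p = 0.36).

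**Figure D3:**
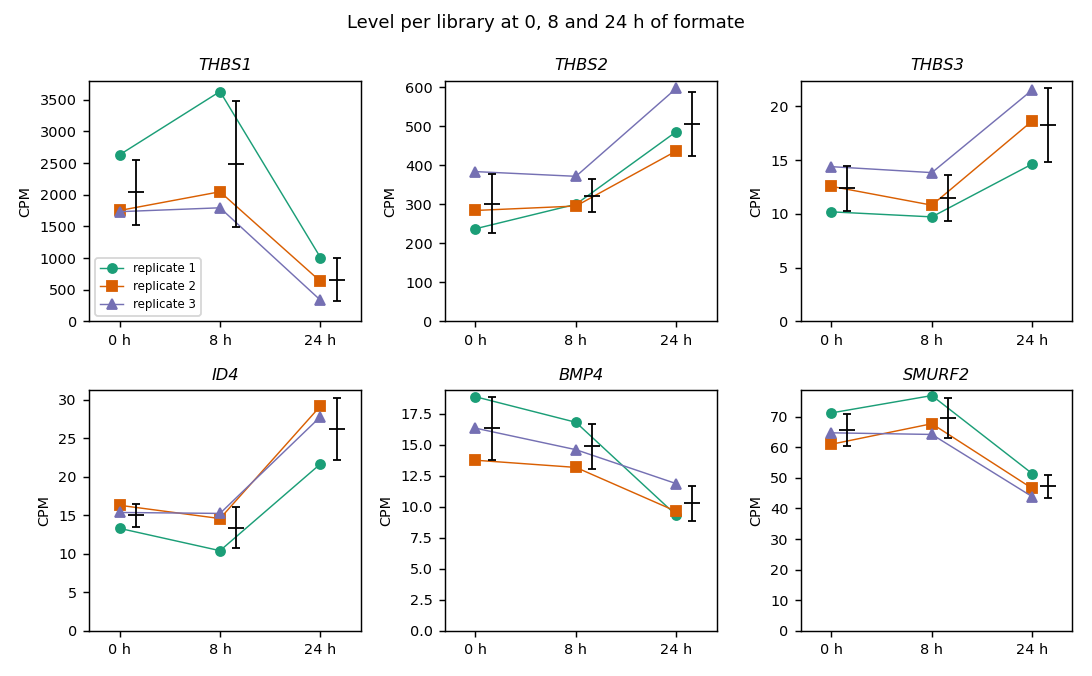
Levels in CPM (vertical axes from 0) are drawn for each library at 0, 8 and 24 h for THBS1, THBS2, THBS3, ID4, BMP4 and SMURF2, with lines joining libraries of the same replicate number and black marks for the mean ± SD of 3 libraries. THBS1, BMP4 and SMURF2 are lowest and THBS2, THBS3 and ID4 highest in all 3 libraries at 24 h.

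Among the ligands, BMP4 was called and the 3 TGF-beta genes were not. BMP4 (ENSG00000125378, chromosome 14, 53949736 to 53958761, minus strand) was at 18.9, 13.7 and 16.3 CPM at 0 h, 16.8, 13.2 and 14.6 CPM at 8 h, and 9.30, 9.62 and 11.9 CPM at 24 h. No library at 24 h reached the lowest of the others. BMP4 fell by 0.67 on the log2 scale at 24 h against 0 h (SE 0.16, adjusted p = 0.0392), a 1.59-fold lower level, while the value against 8 h, -0.53 (SE 0.16), had an adjusted p of 0.0743 and did not pass without the block.

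INHBA encodes the beta A subunit that forms activin A. It stood at 49.5, 80.9 and 98.1 CPM at 0 h, 74.4, 77.7 and 93.0 CPM at 8 h, and 110.1, 108 and 121 CPM at 24 h. The libraries at 24 h were above all others, and untreated replicate 1 was well below the rest. The log2 fold change of INHBA at 24 h against 0 h was 0.57 (SE 0.20), with an adjusted p of 0.111 without and 0.0103 with the block (0.00197 to 0.316 over the alternatives).

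TGFB1 was the most abundant of the 3 TGF-beta genes per kilobase, at 32.7 ± 1.47 CPM per kb at 0 h, beside 2.11 ± 0.172 for TGFB2 and 0.788 ± 0.194 for TGFB3 (SD, n = 3). Their log2 fold changes at 24 h against 0 h were -0.16 (SE 0.10), -0.13 (SE 0.13) and 0.38 (SE 0.21), and none passed with or without the block. TGFB2 shares 26.6% of its exons with TGFB2-OT1 on the same strand, so reads there could be assigned to either.

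Of the 4 latent TGF-beta binding proteins, LTBP3 was the most abundant per kilobase, at 43.7 ± 6.51 CPM per kb at 0 h. LTBP1, which fixes the latent complex to the matrix, was at 52.3, 46.9 and 48.2 CPM at 0 h, 68.2, 49.5 and 47.8 CPM at 8 h, and 48.5, 32.2 and 33.4 CPM at 24 h. The group at 24 h overlapped the others through its replicate 1. The log2 fold change of LTBP1 at 24 h against 0 h was -0.37 (SE 0.17), with an adjusted p of 0.198 without and 0.0163 with the block (0.000163 to 0.473 over the alternatives). LTBP2, LTBP3 and LTBP4 lay between -0.08 and 0.07 on that scale and did not pass.

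None of the 5 receptor genes or the 2 co-receptors passed without the block at 24 h against 0 h. The co-receptor TGFBR3 (betaglycan), which presents TGF-beta to its type II receptor, had the largest fitted value of these. It was at 9.34, 22.6 and 17.7 CPM at 0 h, 15.0, 21.8 and 16.7 CPM at 8 h, and 28.7, 28.7 and 27.7 CPM at 24 h. Those at 24 h lay close together and above all others, while untreated replicate 1 was the lowest of the 9. The log2 fold change at 24 h against 0 h was 0.77 (SE 0.25), with an adjusted p of 0.0928 without and 0.00821 with the block (0.00382 to 0.256 over the alternatives).

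TGFBR2, the type II receptor that binds TGF-beta first, was at 76.1, 94.6 and 88.1 CPM at 0 h, 94.2, 102 and 88.0 CPM at 8 h, and 108, 108 and 102 CPM at 24 h. The libraries at 24 h were above all 3 at 0 h. The log2 fold change was 0.30 (SE 0.10), with an adjusted p of 0.106 without and 0.0274 with the block (0.0258 to 0.306 over the alternatives). BMPR1A, a type I receptor for BMPs, was at 14.9, 19.5 and 17.1 CPM at 0 h, 17.3, 19.7 and 17.9 CPM at 8 h, and 21.5, 21.96 and 21.8 CPM at 24 h. Here too the libraries at 24 h were above all others, with untreated replicate 1 lowest. Its value was 0.34 (SE 0.12), with an adjusted p of 0.111 without and 0.0249 with the block (0.0249 to 0.300 over the alternatives). BMPR1A has pseudogene copies with which its reads could be exchanged.

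ENG (endoglin), a co-receptor best known from endothelium, was at 167, 127 and 131 CPM at 0 h, 157, 128 and 124 CPM at 8 h, and 125, 112 and 116 CPM at 24 h. The highest library at 24 h was just below the lowest at 0 h and within the range at 8 h. For ENG the value at 24 h against 0 h was -0.27 (SE 0.13), with an adjusted p of 0.214 without and 0.0419 with the block (0.0298 to 0.487 over the alternatives). The receptors TGFBR1, BMPR2 and ACVR1 had values of 0.16 (SE 0.12), 0.18 (SE 0.18) and -0.19 (SE 0.08), and did not pass in either fit.

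The fitted values of the 7 tested SMADs, which carry or damp the signal, ran from -0.20 to 0.31 at 24 h against 0 h. SMAD1, a receptor SMAD of the BMP branch, was at 11.5, 14.8 and 16.1 CPM at 0 h, 14.5, 14.9 and 16.7 CPM at 8 h, and 15.6, 18.4 and 18.5 CPM at 24 h. The groups overlapped, with replicate 1 lowest in each. Its log2 fold change at 24 h against 0 h was 0.31 (SE 0.14), with an adjusted p of 0.193 without and 0.0446 with the block (0.0446 to 0.501 over the alternatives). SMAD2 and SMAD3 were at -0.13 (SE 0.11) and -0.05 (SE 0.11), and SMAD5 and SMAD4 at 0.04 (SE 0.13) and 0.09 (SE 0.09). The inhibitory SMAD6 and SMAD7, which are themselves transcribed in response to the pathway, were at -0.20 (SE 0.13) and 0.15 (SE 0.12), and none of these 6 passed in either fit. SMAD9 was counted 2, 2 and 7 times at 0 h, 7, 2 and 3 times at 8 h and 7, 5 and 3 times at 24 h, too few for a comparison.

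The ubiquitin ligases SMURF1 and SMURF2 mark receptors and SMADs for degradation. SMURF2 (ENSG00000108854, chromosome 17, 64542295 to 64662068, minus strand) was at 71.2, 61.0 and 64.7 CPM at 0 h, 76.9, 67.7 and 64.2 CPM at 8 h, and 51.3, 46.5 and 43.8 CPM at 24 h. The groups at 0 h and 8 h lay wholly above that at 24 h. SMURF2 fell by 0.47 on the log2 scale at 24 h against 0 h (SE 0.11, adjusted p = 0.0352), a 1.39-fold lower level, and by 0.56 against 8 h (SE 0.11, adjusted p = 0.0243). SMURF1 was at 0.03 (SE 0.10) at 24 h against 0 h and did not pass. The difference between the ligases was not tested. CEP95 overlaps 2.4% of the SMURF2 exons on the opposite strand, and SMURF2P1 is a pseudogene copy. TRRAP overlaps 11.7% of the SMURF1 exons on the opposite strand. It was at a mean of 102 CPM at 0 h and 130 CPM at 24 h, above SMURF1 at 77.4 and 79.2 CPM.

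Of the SKI family and TGIF1, which recruit repressor complexes to SMADs, SKI was at 62.0, 77.2 and 74.3 CPM at 0 h, 69.1, 77.8 and 68.4 CPM at 8 h, and 85.2, 89.7 and 94.0 CPM at 24 h. The libraries at 24 h were above all others, and untreated replicate 1 was lowest. Its log2 fold change at 24 h against 0 h was 0.33 (SE 0.11), with an adjusted p of 0.0873 without and 0.0156 with the block (0.0156 to 0.289 over the alternatives). SKIL and TGIF1 were at 0.06 (SE 0.22) and 0.00 (SE 0.10), and did not pass.

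The ID genes encode inhibitors of basic helix-loop-helix factors and are textbook BMP targets. ID4 (ENSG00000172201, chromosome 6, 19837386 to 19840684, plus strand), which has neural progenitors among its known sites, was at 13.3, 16.3 and 15.4 CPM at 0 h, 10.4, 14.6 and 15.2 CPM at 8 h, and 21.7, 29.2 and 27.8 CPM at 24 h. All libraries at 24 h were above all others. ID4 rose by 0.80 on the log2 scale at 24 h against 0 h (SE 0.16, adjusted p = 0.0289), 1.75-fold, and by 0.97 against 8 h (SE 0.17, adjusted p = 0.0198), 1.95-fold.

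ID1 was at 187, 99.9 and 114 CPM at 0 h, 146, 99.3 and 118 CPM at 8 h, and 127, 89.8 and 98.9 CPM at 24 h. Replicate 1 was highest in each group, and the groups overlapped. The log2 fold change of ID1 at 24 h against 0 h was -0.35 (SE 0.23), with an adjusted p of 0.341 without and 0.036 with the block (0.0223 to 0.923 over the alternatives). ID2 and ID3 were at 0.19 (SE 0.18) and -0.18 (SE 0.16), and did not pass. Of the 4 ID genes, ID4 thus passed and the fitted values of the others had either sign. Per kilobase at 24 h, ID1 at 85.4 ± 15.8 and ID3 at 61.3 ± 5.68 CPM per kb were still above ID4 at 11.2 ± 1.70 (SD, n = 3).

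Genes that feed back on the pathway at the membrane were abundant. PMEPA1, a TGF-beta-induced protein that keeps receptor SMADs from their receptor, was at 1584, 1249 and 1430.1 CPM at 0 h, 1469.9, 1239 and 1443 CPM at 8 h, and 1184, 1024 and 1173 CPM at 24 h. All libraries at 24 h were below all others. The fitted log2 fold change of PMEPA1 was -0.33 (SE 0.13), with an adjusted p of 0.141 without and 0.0117 with the block (0.00455 to 0.370 over the alternatives). NKILA, a noncoding RNA on the opposite strand, overlaps 6.1% of the PMEPA1 exons and was at a mean of 46.8 CPM at 0 h, 46.4 CPM at 8 h and 27.1 CPM at 24 h.

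BAMBI, a receptor-like protein without a kinase that damps the signal, was at 235, 267 and 255 CPM at 0 h, 178, 259 and 261 CPM at 8 h, and 291, 308 and 339 CPM at 24 h. The libraries at 24 h were above all others, and 8 h replicate 1 was the lowest of the 9. Its log2 fold change at 24 h against 0 h was 0.31 (SE 0.14), with an adjusted p of 0.193 without and 0.042 with the block (0.0115 to 0.444 over the alternatives).

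FST (follistatin), which binds and blocks activin, was at 121, 80.7 and 69.8 CPM at 0 h, 98.4, 82.1 and 68.1 CPM at 8 h, and 101, 120.4 and 129.5 CPM at 24 h. The libraries at 24 h were above those at 8 h but overlapped those at 0 h through untreated replicate 1. The log2 fold change was 0.37 (SE 0.20) at 24 h against 0 h and 0.50 (SE 0.20) against 8 h, and neither passed in the fit without the block.

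TGFBI, a matrix protein named for its induction by TGF-beta, was at 661, 589.9 and 611 CPM at 0 h, 608, 598 and 591 CPM at 8 h, and 512, 462 and 479.8 CPM at 24 h. Its 24 h libraries were the 3 lowest of the 9. For TGFBI the log2 fold change at 24 h against 0 h was -0.36 (SE 0.10), with an adjusted p of 0.0625 without and 0.00721 with the block (0.000805 to 0.226 over the alternatives). The 21 genes of the set that passed in neither fit at 24 h against 0 h ran from -0.20 for SMAD6 to 0.38 for TGFB3.

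**Figure D4:**
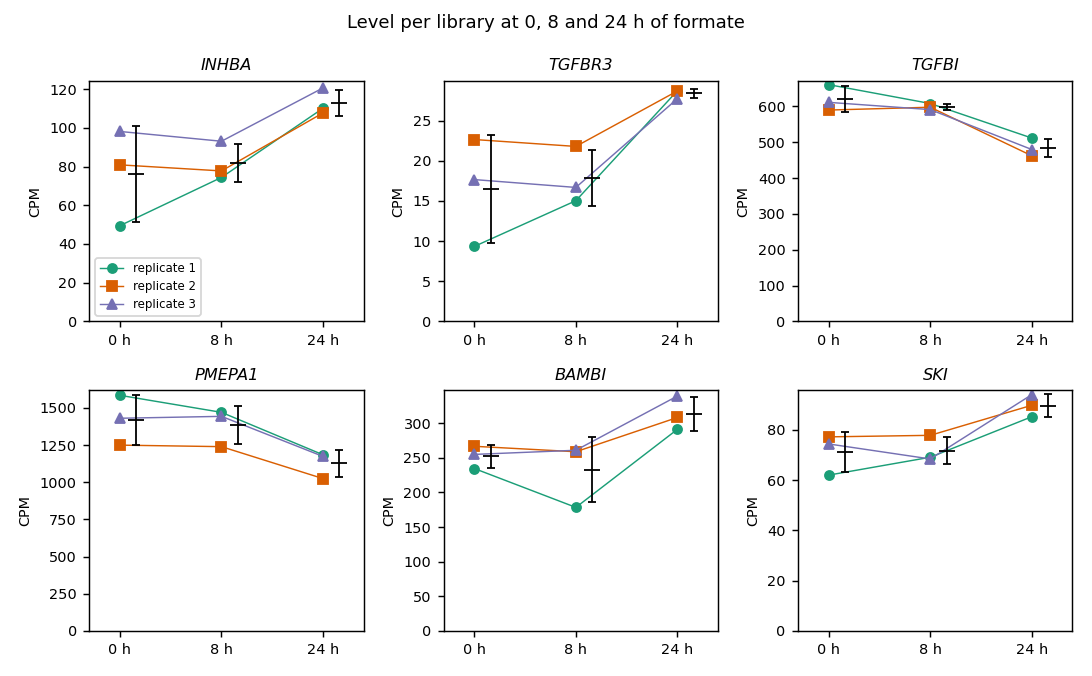
Levels in CPM (vertical axes from 0) are drawn for each library at 0, 8 and 24 h for INHBA, TGFBR3, TGFBI, PMEPA1, BAMBI and SKI, with lines joining libraries of the same replicate number and black marks for the mean ± SD of 3 libraries. The 24 h libraries do not overlap the untreated ones in any of the 6 panels, and INHBA and TGFBR3 start from their lowest value, 49.5 and 9.34 CPM, in untreated replicate 1.

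The counts of called genes differed without the libraries numbered 1. With replicate 1 of all 3 groups left out, an alternative chosen after seeing the data, 12 of the 39 genes passed at 24 h against 0 h, all 5 named above among them, where 16.9% of all tested genes were called. Against 8 h, 12 passed, all 3 named above among them, where 19.9% of all tested genes were called. At 8 h against 0 h none passed.

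Beyond the set, a list of 102 further genes of the pathway was also chosen with earlier results of these data known. It had 86 genes with a row, and 70 were tested. Of these, 10 passed at 24 h against 0 h (14.3%, beside 4.25% of all tested genes), 5 higher and 5 lower, and with the block 29 passed (41.4%, beside 24.1% of all tested genes), 13 higher and 16 lower. Between 24 h and 8 h, 11 passed (15.7%, beside 4.56% of all tested genes), 6 higher and 5 lower. At 8 h against 0 h none passed, and 0% of all tested genes did. The count at 24 h against 0 h was 0 without 24 h replicate 2 or 24 h replicate 3, as over all tested genes. It was 3 (284 of all tested) without 8 h replicate 3, 4 (418) without untreated replicate 3 and 5 (356) without untreated replicate 1. Against 8 h the count was 0 without 8 h replicate 1, 24 h replicate 2 or 24 h replicate 3. There 0 of all tested genes were called. The count was 1 (53 of all tested) without 8 h replicate 3 and 24 (2545) without untreated replicate 1. The median log2 fold change at 24 h against 0 h was 0.04, close to that of all tested genes.

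Among 21 tested TGF-beta target genes, 2 rose and 4 fell at 24 h against 0 h (28.6% called, beside 4.25% of all tested genes), with a median log2 fold change of -0.05. With the block 5 were higher and 9 lower (66.7%, beside 24.1%). These targets belong to the same list, so the shares are no test either. TAGLN, an actin-binding protein of contractile cells, was at 13.9, 6.55 and 8.27 CPM at 0 h and 3.34, 3.49 and 4.19 CPM at 24 h. It fell by 1.37 (SE 0.30, adjusted p = 0.0316), with no overlap between the groups. ADAM19, a membrane metalloprotease, fell by 0.55 (SE 0.12, adjusted p = 0.0314), and LMCD1, a LIM-domain protein, rose by 0.49 (SE 0.11, adjusted p = 0.0355). IL11 and CDKN1A were also called and are named after their values were seen: the cytokine gene IL11 fell by 1.82 (SE 0.43, adjusted p = 0.0394) and CDKN1A, which encodes the cell cycle inhibitor p21, rose by 0.81 (SE 0.18, adjusted p = 0.0358). Several of these genes are also controlled by pathways other than TGF-beta.

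**Figure D5:**
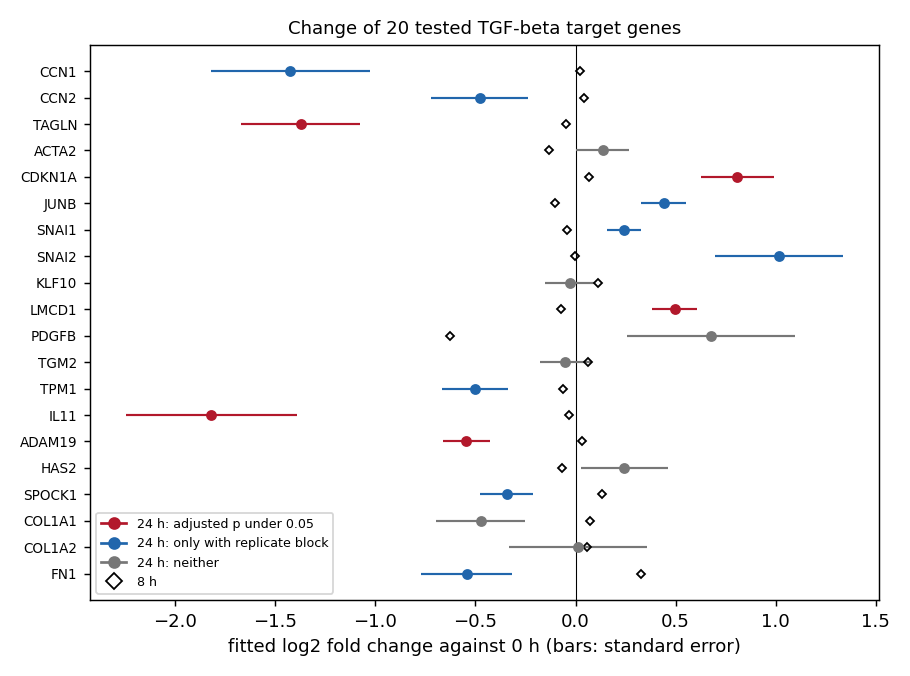
The fitted log2 fold change against 0 h (horizontal axis) is drawn for 20 of the 21 tested TGF-beta target genes as filled points with standard error bars at 24 h and as open diamonds at 8 h. Of the genes drawn, IL11 at -1.82 stands farthest below 0 at 24 h, and CDKN1A at 0.81 is the highest of the points called without the block.

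Among 10 tested genes listed as further ligands, GDF11 and GDF15 rose at 24 h against 0 h. That is 20% called, beside 4.25% of all tested genes. The 10 include BMP1, a protease. GDF11, a relative of myostatin that signals through activin receptors, was at 59.2, 81.4 and 72.8 CPM at 0 h and at 102, 120.02 and 154 CPM at 24 h, and rose by 0.82 (SE 0.16, adjusted p = 0.0274). GDF15, a stress-responsive cytokine, rose by 0.81 (SE 0.18, adjusted p = 0.0356). Of 10 further receptors and co-receptors, ACVR1C (the type I receptor ALK7) rose by 1.47 (SE 0.30, adjusted p = 0.0293), from 0.330, 0.655 and 0.664 CPM to 1.56, 1.42 and 1.66 CPM. It was the only one of the 10 called (10%, beside 4.25% of all tested genes). The groups did not overlap for ACVR1C, which was among the low-count genes tested. Of 20 further intracellular partners in the pathway, 0 passed without the block, beside 4.25% of all tested genes. With the block 1 passed, STRAP, which was lower (5%, beside 24.1% of all tested genes).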

How the data were processed

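RNA was measured by poly(A) RNA sequencing in 9 libraries, 3 per group. Per the labels' protocols, total RNA had an integrity number above 9 and the kit was a stranded mRNA kit. The submitters' processing notes name bcl2fastq 2.20.0.422, STAR 2.7.4a and GRCh38. The counting program, its strand setting and the annotation release are not given in the sources used here. The authors deposited raw counts per Ensembl gene in a single table. No per-sample column was left unmatched. A table of gene names matched symbols to 19733 of 23727 Ensembl identifiers, and coordinates, exon lengths and overlaps from GENCODE 29 on GRCh38. Without a stated strand setting, reads of a gene and its antisense partner cannot be told apart.

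The filter on low counts was filterByExpr, and libraries were scaled by TMM (factors 0.920 to 1.06). A model with 1 mean for each group was fitted to the counts of the 9 libraries in edgeR 4.0.16 (R 4.3.3). The two-sided quasi-likelihood test was adjusted by Benjamini-Hochberg over 15273 genes, with a threshold of 0.05. The fit was tested on simulated data with 200 changed genes. CPM use TMM library sizes. A gene was given in full where it passed at 24 h in either fit, and of the pathway list up to 4 genes per direction by smallest p. Some genes so chosen from the pathway list are not reported here, though the counts over that list include them. The genes and lists were chosen with earlier results of these data known.

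Libraries of the same number deviated together: the correlation of deviations from the group means was 0.414 to 0.476 between 0 h and 8 h and 0.164 to 0.367 between 0 h and 24 h. Untreated replicate 3 correlated more with 24 h replicate 2 (0.270) than with its own number (0.251). Every same-numbered pair of these comparisons was above 0.1, so the fit with the replicate number as a block is given beside results of these comparisons that it changes. The block is a single term over all libraries, so it also treats the numbers as shared between 8 h and 24 h. There the pair numbered 2 correlated at only 0.0367. No pair of libraries within a group agreed within sampling noise (chi-square per degree of freedom 8.50 to 58.6). Alternatives were median-of-ratios scaling, no filter, DESeq2 1.42.0, the block, only the 2 groups compared, and leaving out libraries.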

Additional observations from a re-analysis of the deposited data

Results flagged for a closer look

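For 3 genes the effect at 24 h differed from the effect at 8 h, tested as 24 h against 8 h with edgeR's quasi-likelihood test and Benjamini-Hochberg adjustment over all tested genes. THBS1 differed by -1.92 on the log2 scale (adjusted p = 0.0248), SMURF2 by -0.56 (adjusted p = 0.0243) and ID4 by 0.97 (adjusted p = 0.0198). The 3 libraries at 24 h lay below all 6 others for THBS1 and SMURF2 and above them for ID4. The 24 h and 8 h libraries did not overlap for 34.3% of all tested genes. Without the block, none of these genes passed without 8 h replicate 1, 8 h replicate 3, 24 h replicate 2 or 24 h replicate 3. Over all tested genes these fits called 0, except 53 without 8 h replicate 3.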

How the results depend on the processing

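At 24 h against 0 h, the 5 genes of the set called, 649 of all tested genes and 10 of the pathway list became 8, 1656 and 16 with DESeq2, 18, 3687 and 29 with the replicate block, and 0, 124 and 1 with only the 2 groups compared. Without replicate 1 of all 3 groups they became 12, 2616 and 22. Leaving out each library in turn gave 0 to 5, 0 to 899 and 0 to 11 without the block, and 10 to 18, 2213 to 3816 and 21 to 27 with it. At 24 h against 8 h, the 3, 696 and 11 genes called became 8, 1486 and 17 with DESeq2, 14, 3130 (20.5% of those tested) and 27 with the replicate block, 10, 1787 and 22 with only the 2 groups compared, and 12, 3072 and 24 without replicate 1 of all 3 groups. Leaving out each library gave 0 to 12, 0 to 2545 and 0 to 24 without the block, and 7 to 20, 1179 to 5432 and 16 to 35 with it. Between 8 h and 24 h the same-numbered libraries correlated at 0.423, 0.0367 and 0.404, and 8 h replicate 2 correlated at 0.037 with 24 h replicate 3. These libraries are therefore taken to share only a number. The block fit assumes more than this in every comparison, since its single term spans all libraries. The 14 genes of the set that passed there with the block (35.9%) were THBS1, THBS2, THBS3, ID4, SMURF2, BMP4, BAMBI, FST, INHBA, LTBP1, PMEPA1, SKI, TGFBI and TGFBR3. FST had an adjusted p of 0.0481 with the block (0.00122 to 0.440 over the alternatives). The cause of these differences was not tested, beyond the fewer libraries of some fits.

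Median-of-ratios scaling and no filter kept the same 5 and 3 genes of the set. No fitted direction of a gene given in full changed at 24 h under any of the 24 alternatives. At 24 h against 0 h, ID4 and THBS1 passed in 19 of the 24, SMURF2 in 18, BMP4 in 16 and THBS2 in 15. The 24 include the block fit and the 9 block fits that left out a library, and all 5 genes passed in these. When a single library was left out without the block, THBS2 passed only without untreated replicate 3. BMP4 passed there only without untreated replicate 2 or 8 h replicate 1. All counts at 8 h against 0 h stayed at 0. Where leaving out a library leaves 2 in a group, the spread is that of all groups together. SMAD9 is limited by depth, with at most 7 counts in a library.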
